A study of Mus musculus with 24 samples.

Results

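DNA transposon elements were taken as the repeat rows of the deposited count table whose class was exactly DNA, in which each row sums the reads of all genomic copies of 1 element. This gave 250 of the 1445 repeat elements, in 19 families, and 213 of them passed the filter on low counts, out of 1207 repeat elements that passed. Another 30 rows carried the uncertain class "DNA?" and were not counted as members. A mean of less than 1 normalized count over the libraries was found in 16 rows, and 1 row was 0 in all of them. Which genomic copies gave the reads was not analysed here. The family named DNA held the 25 elements of this class that had no narrower family name, and a question mark in a family name (hAT?, TcMar?) marks an uncertain assignment.

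DNA transposons move by cut and paste: a transposase encoded by the autonomous copies cuts the element out at its terminal inverted repeats and inserts it elsewhere, and many short non-autonomous elements rely on that enzyme. The hAT and TcMar (Tc1/mariner) superfamilies make up most of the mammalian ones. In the mouse they are fossils with no known active copy, in contrast to the LTR and LINE-1 retrotransposons, which copy themselves through RNA and are classical targets of H3K9 methylation. Several host genes descend from their transposases.

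RNA-seq of total RNA was collected from mouse embryonic fibroblasts (MEFs) in which the 6 genes for SET-domain H3K9 methyltransferases (KMTs) had been inactivated step by step, with 8 conditions of 3 libraries each. Eset1 (Setdb1), Eset2 (Setdb2), Suv39h1, Suv39h2, G9a (Ehmt2) and Glp (Ehmt1) were the targets. The comparison asks how DNA transposon RNA differs when these enzymes are lost alone or in combination. All lines share a conditional Eset1 allele and a tamoxifen-inducible Cre, and Eset1 was deleted by 4-hydroxytamoxifen (4-OHT, 1 µM). WT was the conditional clone (E25) without 4-OHT, so it carries an intact but floxed Eset1. E1 was the same clone after 4-OHT. E1 S1S2 was clone B1, with Suv39h1 and Suv39h2 disrupted, after 4-OHT. 6KO1 was its descendant B1A6, with all 6 genes inactivated, after 4-OHT. E2 was clone A4, with Eset2 disrupted, without 4-OHT, and E1E2 was the same clone after 4-OHT. E1E2 G9Gl was a clone derived from A4 with G9a and Glp also disrupted, after 4-OHT, and its title reads E2, a clone name not to be confused with the E2 condition. 6KO2 was its descendant E2F4, with all 6 genes inactivated, after 4-OHT. Each genotype is 1 clone, and all clones but E25 had been through CRISPR/Cas9 transfection and selection and had received a further inducible Cre construct, so clone and genotype cannot be told apart. The study calls the 3 libraries of a condition biological replicates of a cell line; p-values measure the spread between them.

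Total counts were 24737310 to 37419820 per library, of which 12.5 to 21.9% fell on repeats and 0.187 to 0.292% on DNA transposons (62252 to 94993 counts). WT replicate 2 stood apart from the other WT libraries: its chi-square statistic per gene was 64.6 and 54.0 against them, while it was 4.82 between WT replicates 1 and 3, and no replicate pair of any condition agreed within sampling noise. Calls, counts and class totals that moved with this library are given with and without it. Of 23 pairs of a targeted gene and a line in which it was inactivated, 21 had a count below WT, by 0.31 to 1.73 on the log2 scale, and Suv39h2 in E1 S1S2 and 6KO1 did not. Suv39h1 and Suv39h2 were not targeted in E1E2 G9Gl, but their log2 fold changes against WT there were -0.47 and -1.47. In 6KO2, where both were disrupted, they were -0.81 and -0.96. Setdb1, whose gene total also counts the exons outside the deletion, had a mean of 1233 normalized counts in E2 and 1237 in the libraries labelled E1E2. Counts of 10 fibroblast markers summed to 96936 to 242126 per library and those of 10 markers of other cell types to 135 to 1066. The fibroblast sum was lowest and the other sum highest in 6KO1, where Krt8 and Cd68 made up most of it (422.7 and 491.9 normalized counts), and Ptprc, a marker of blood cells, was at 0 in WT and at 15.7, 18.7 and 47.7 in 6KO1, 6KO2 and E1E2 G9Gl. Fibroblast markers were not kept alike: Thy1 had 199.1 normalized counts in WT, 0.861 in E1 S1S2 and 0.293 in 6KO1, and Pdgfra had 128.9 in WT and 3.12 in 6KO1. The part of these differences in the results for DNA transposons was not tested.

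The DNA class as a whole changed little (normalized counts are scaled by the gene rows, so they compare repeats with genes). WT had 84865, 59705 and 81005 normalized counts, E1E2 G9Gl had 93771, 88235 and 89916, and 6KO2 had 69401, 71166 and 71111. All E1E2 G9Gl libraries thus lay above all WT libraries, with a ratio of means of 1.21, while 6KO2 overlapped WT at 0.938. The other mutants also overlapped WT, with E1 S1S2 at a ratio of 1.06 and the rest (E1, 6KO1, E2 and the libraries labelled E1E2) at 1.03 each. The exact permutation test of E1E2 G9Gl against WT gave a two-sided p of 0.1, which is the smallest that 3 against 3 libraries allow. Without WT replicate 2 the ratio was 1.09 in E1E2 G9Gl and 0.850 in 6KO2, and the ratios of the other mutants turned below 1, from 6KO1 at 0.931, E2 at 0.934, E1 at 0.935 and the libraries labelled E1E2 at 0.937 to E1 S1S2 at 0.965. The overlap of 6KO2 and of the libraries labelled E1E2 (77084 to 78602 normalized counts) with WT rested on that library.

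Old repeats of other classes served as a second yardstick, namely the L2 and MIR families, which like most DNA transposons are inactive remnants. DNA transposons had 3.58, 3.74 and 3.69 counts per L2 and MIR count in WT and 3.90, 4.01 and 3.91 in E1E2 G9Gl, a ratio of 1.07 with no overlap (exact permutation p = 0.1). In E1 the ratio was 1.02, also without overlap (exact permutation p = 0.1), and the other 5 mutants overlapped WT at 0.978 to 1.01. The class did lose ground among repeats. It made up 1.90% ± 0.35 (SD, n = 3) of repeat counts in WT, 1.21% in 6KO1, 1.20% in 6KO2 and 1.35% in E1E2 G9Gl, and in these 3 lines every library lay below every WT library (exact permutation p = 0.1 in each). Scaled by repeat counts alone, the ratio of the class total to WT therefore turned from 1.21 to 0.676 in E1E2 G9Gl, and it was 0.673 in 6KO1 and 0.748 in 6KO2. This scaling shifted all elements by -0.83, -0.61 and -0.33 on the log2 scale in these 3 lines. The changes below are relative to genes.

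**Figure D1:**
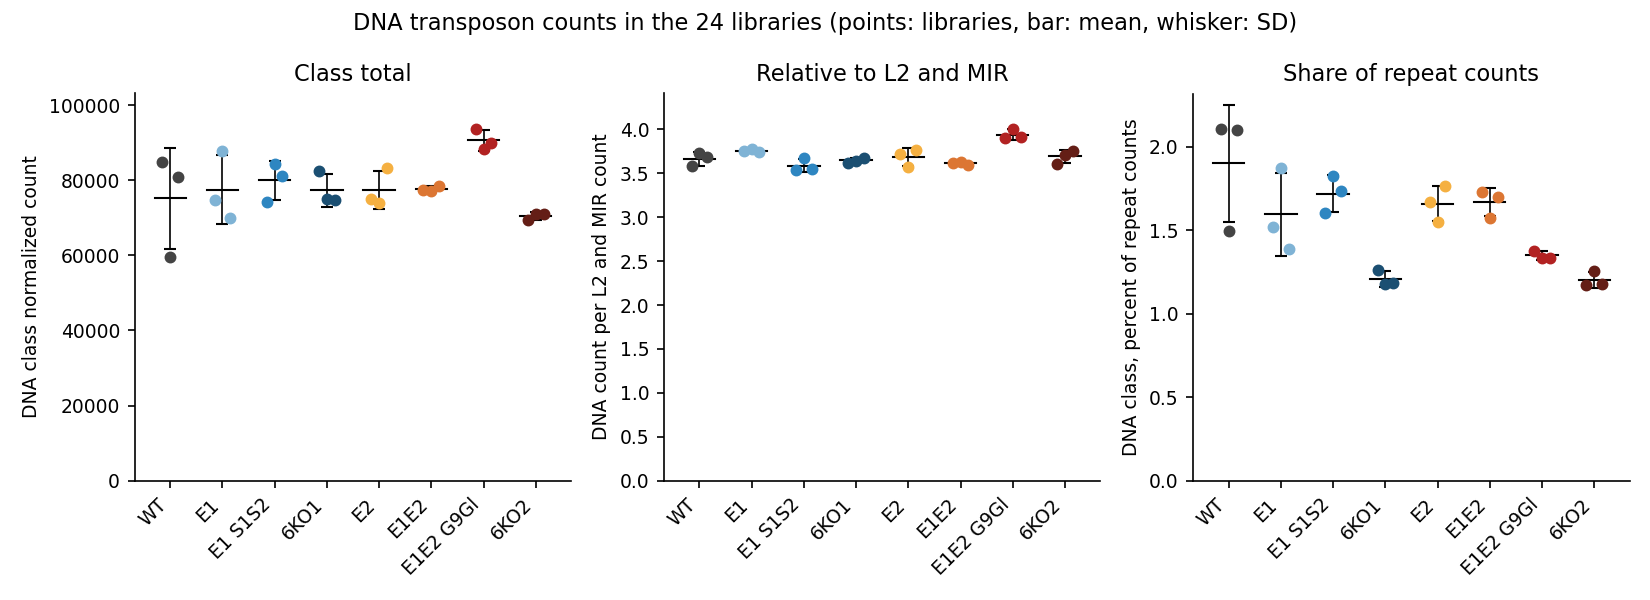
DNA transposon counts in each of the 24 libraries by condition: the class total in normalized counts, the total per count of the L2 and MIR families, and the total as a percent of all repeat counts. Points are libraries, bars are means and whiskers are SD (n = 3); E1E2 G9Gl lies above WT in the first 2 panels, and 6KO1, E1E2 G9Gl and 6KO2 lie below WT in the last (means of 1.21%, 1.35% and 1.20% against 1.90%).

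Most of the class total came from few elements, and these hardly moved. The 10 elements with the highest counts held 68.6% of DNA transposon counts and were all hAT-Charlie: the rodent elements URR1A, URR1B, RCHARR1 and RMER30, Charlie1a, and the short non-autonomous MER20, MER58B, MER58A, MER33 and MER3. URR1A and URR1B alone held 44.5%. URR1A had 19166, 13391 and 18354 normalized counts in WT, 22173, 20797 and 21022 in E1E2 G9Gl, while 6KO2 had 16539, 16835 and 16874. Its log2 fold change against WT was 0.33 ± 0.11 (SE) in E1E2 G9Gl and within ±0.14 in the other 6 mutants. RCHARR1 had the largest change among the 10 in E1E2 G9Gl, 0.36 ± 0.11 (adjusted p = 0.0042 in the edgeR quasi-likelihood test), and Charlie1a was at -0.06 there. In 6KO2 the values of the 10 elements ran from -0.28 (Charlie1a) to -0.02 (URR1A). None of the 10 met the fold change minimum against WT in any mutant, and with the scaling by repeats alone URR1A, URR1B and RCHARR1 were below WT in 6KO1 and E1E2 G9Gl (-0.48 to -0.57).

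An element was called higher or lower at a log2 fold change of at least 1 in size and an adjusted p of at most 0.01 (edgeR quasi-likelihood test over all 24 libraries, Benjamini-Hochberg adjustment over the 1207 repeat elements). All 7 comparisons with WT share the same WT libraries. In E1, 2 of 213 DNA transposons were called higher, against 4.64% of all elements, and 1 lower, against 0.249%. E1 S1S2 had 3 higher, against 6.46%, and 2 lower, against 0.746%. E2 had 2 higher, against 4.97%, and 0 lower by edgeR, against 2.32%, with 15 at an unadjusted p under 0.05 in that direction and 0 called by DESeq2. The libraries labelled E1E2 had 1 higher, against 5.55%, and 1 lower, against 1.57%. Calls were more frequent in the lines without 4 or 6 KMTs. 6KO1 had 15 higher, against 32.6%, and 5 lower, against 2.65%. E1E2 G9Gl had 32 higher, against 41.3%, and 1 lower, against 2.07%. 6KO2 had 10 higher, against 22.5%, and 3 lower, against 2.15%. With scaling by repeats alone the balance turned, to 7 higher with 27 lower for 6KO1, 13 with 36 for E1E2 G9Gl and 6 with 12 for 6KO2. Shares over all elements or families under this scaling were not counted, here or below, so these counts do not set the class against other repeats.

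The share of DNA transposons called higher was below the share over all elements in each mutant: it was 0.939% for E1, 0.939% for E2, 0.469% for E1E2, 1.41% for E1 S1S2, 7.04% for 6KO1, 4.69% for 6KO2 and 15% for E1E2 G9Gl. Of the LTR elements 46.5% were called higher in 6KO1, 32.8% in 6KO2 and 56.5% in E1E2 G9Gl, and of the LINE elements 40%, 25.9% and 49.8%, while 0 of the 12 tested L2 and MIR elements were called higher in any of these 3 lines. The median log2 fold change of DNA transposons was 0.09 in 6KO1, -0.13 in 6KO2 and 0.27 in E1E2 G9Gl, against 0.56, 0.28 and 0.77 over all elements and 0.03, -0.07 and 0.18 over the L2 and MIR elements. Calls sat on elements with low counts. Of the 76 DNA transposons with a mean above 100 normalized counts, 3 were called higher in 6KO1, 1 in 6KO2 and 5 in E1E2 G9Gl, and of the 137 with less, 12, 9 and 27 were. Over all elements the share called was instead larger above a mean of 100 (37.6, 26.1 and 47.2%) than at or below it (25.9, 17.6 and 33.1%).

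Some counts rested on single WT libraries. Leaving out 1 library at a time gave 11 to 21 DNA transposons called higher in 6KO1 and 28 to 40 in E1E2 G9Gl, so counts could rise or fall. Shares over all elements were not counted with a library left out. Without WT replicate 2, 11 DNA transposons were called higher in 6KO1, 28 in E1E2 G9Gl, 6 in 6KO2 and 1 in E1 S1S2, and 8 were called lower in 6KO1 and 6 in 6KO2. Without WT replicate 1, 4 were called higher in the libraries labelled E1E2, 3 were called lower in 6KO1, 1 in 6KO2 and 1 in E2. Without WT replicate 3, 2 were called higher in the libraries labelled E1E2 and 0 lower there and in E1, where leaving out WT replicate 2 gave 2. Some counts also rested on single libraries of the mutants: the count was 1 higher in E1 S1S2 without its replicate 3, 2 higher in E1E2 without its replicate 2, 0 lower in E1E2 without its replicate 3, 1 lower in E2 without its replicate 3 and 2 lower in E1E2 G9Gl without its replicate 2. All libraries of the line lay above all WT libraries for each of the 15, 32 and 10 elements called higher in 6KO1, E1E2 G9Gl and 6KO2. The rule for a call makes such separation likely. Over the 213 tested DNA transposons, called or not, 46, 86 and 25 lay wholly above WT in these lines. In the same order 18, 12 and 27 lay wholly below. The same counts over all repeat elements were not made, so these do not set the class against other repeats.

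**Figure D2:**
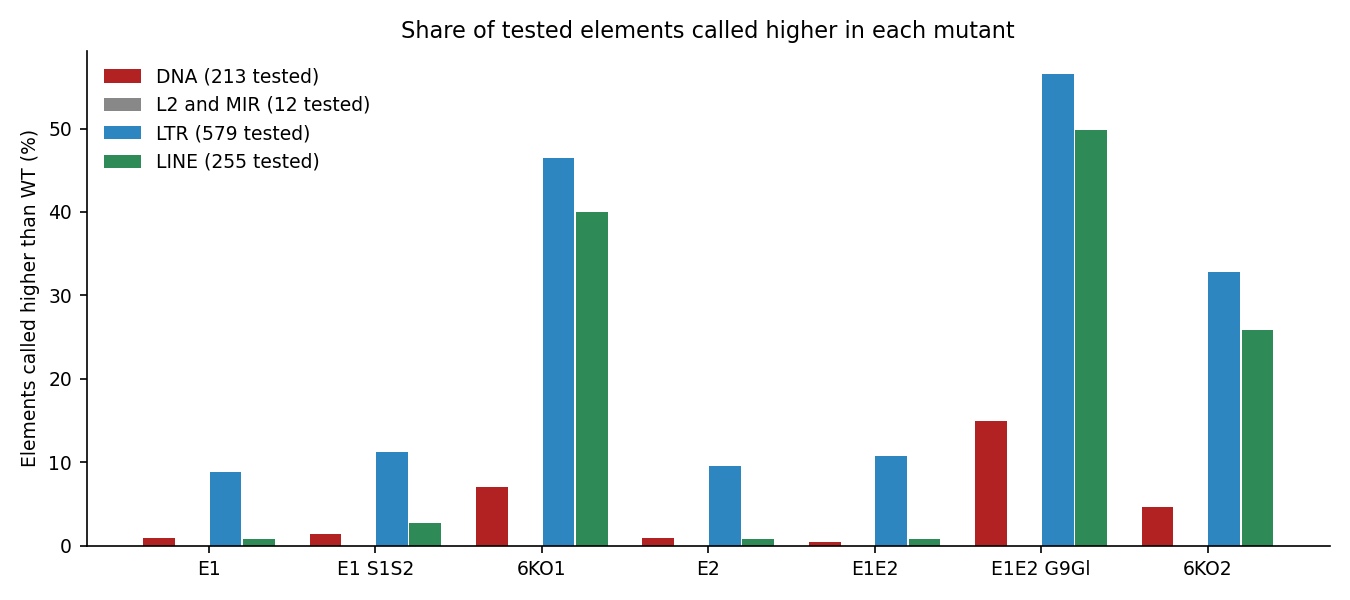
Percent of tested elements called higher than WT in each mutant, for DNA transposons (213 tested) beside the L2 and MIR families (12), LTR elements (579) and LINE elements (255). DNA transposons reach 7.04%, 4.69% and 15% in 6KO1, 6KO2 and E1E2 G9Gl, below the LTR and LINE bars in the same lines.

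By family, the same analysis was run on summed counts, with 16 DNA transposon families among the 57 repeat families tested. In E1E2 G9Gl 2 of the 16 were called higher, against 14% of all families, whereas with scaling by repeats alone 0 were called higher and 2 lower. In the other 6 mutants 0 were called higher, against 5.26% for E1 and E1 S1S2, 8.77% for 6KO1 and 6KO2, 3.51% for E2 and 1.75% for the libraries labelled E1E2, and DESeq2 gave 0 as well. At an unadjusted p under 0.05, 5 families were higher in 6KO1, 1 in 6KO2 and 0 in the rest. No family was called lower by edgeR or DESeq2, against 5.26% in 6KO1 and 0% elsewhere, with 3 at an unadjusted p under 0.05 in 6KO2, 2 in 6KO1, 0 in E1 and 1 in each of the others. The hAT? family had 236.6, 176.2 and 224.8 normalized counts in WT and 440.1, 536.5 and 497.4 in E1E2 G9Gl, a log2 fold change of 1.21 ± 0.11. Its element with the most counts there was MER121, a highly conserved old repeat named here after its values were seen, at 100.2, 92.2 and 104.4 in WT against 282, 343 and 317. Kolobok, with UCON29 as its only element, had 32.0, 29.2 and 39.1 in WT and 74.4, 70.5 and 66.1 in E1E2 G9Gl (1.08 ± 0.21), and fell under the fold change minimum without WT replicate 2 (0.98). Neither family overlapped between these conditions, but with scaling by repeats alone neither was called (0.37 for hAT? and 0.23 for Kolobok).

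Below the fold change minimum, 4 more families passed the adjusted p of 0.01 upwards in E1E2 G9Gl. These were hAT-Tip100 (0.81 ± 0.11), hAT-Ac (0.67 ± 0.12), the family named DNA (0.49 ± 0.11) and TcMar-Tigger (0.34 ± 0.10), and each was below WT when scaled by repeats alone (-0.016, -0.18, -0.34 and -0.49). PiggyBac was at -0.58 ± 0.18 in the same line. The median log2 fold change in E1E2 G9Gl was 0.27 over the 16 DNA transposon families and 0.29 over all families. hAT-Tip100 had 1774, 1184 and 1689 normalized counts in WT, 2886, 2606 and 2677 in E1E2 G9Gl and 2213, 1948 and 1915 in 6KO1, without overlap in either line. It was also past the adjusted p in 6KO1 at 0.39 ± 0.11, where the scaling by repeats alone gave -0.22. TcMar-Tc1 went the other way, at -0.59 ± 0.13 in 6KO1, -0.56 ± 0.13 in E2 and -0.56 ± 0.13 in 6KO2, and TcMar-Tc2 was at -0.43 ± 0.10 in 6KO2. hAT-Charlie, with 82.4% of the class counts, was at 0.03 in 6KO1, -0.10 in 6KO2 and 0.24 in E1E2 G9Gl, and TcMar-Tigger, with 9.28%, was at 0.04 in 6KO1 and -0.11 in 6KO2. The hAT-Blackjack, TcMar-Mariner, hAT, hAT-Tag1, hAT-Tip100? and TcMar totals did not pass the adjusted p of 0.01 in any mutant. Too few counts were present to test TcMar?, TcMar-Pogo and PIF-Harbinger, whose 5 rows had at most 3.91 normalized counts per family in a library.

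**Figure D3:**
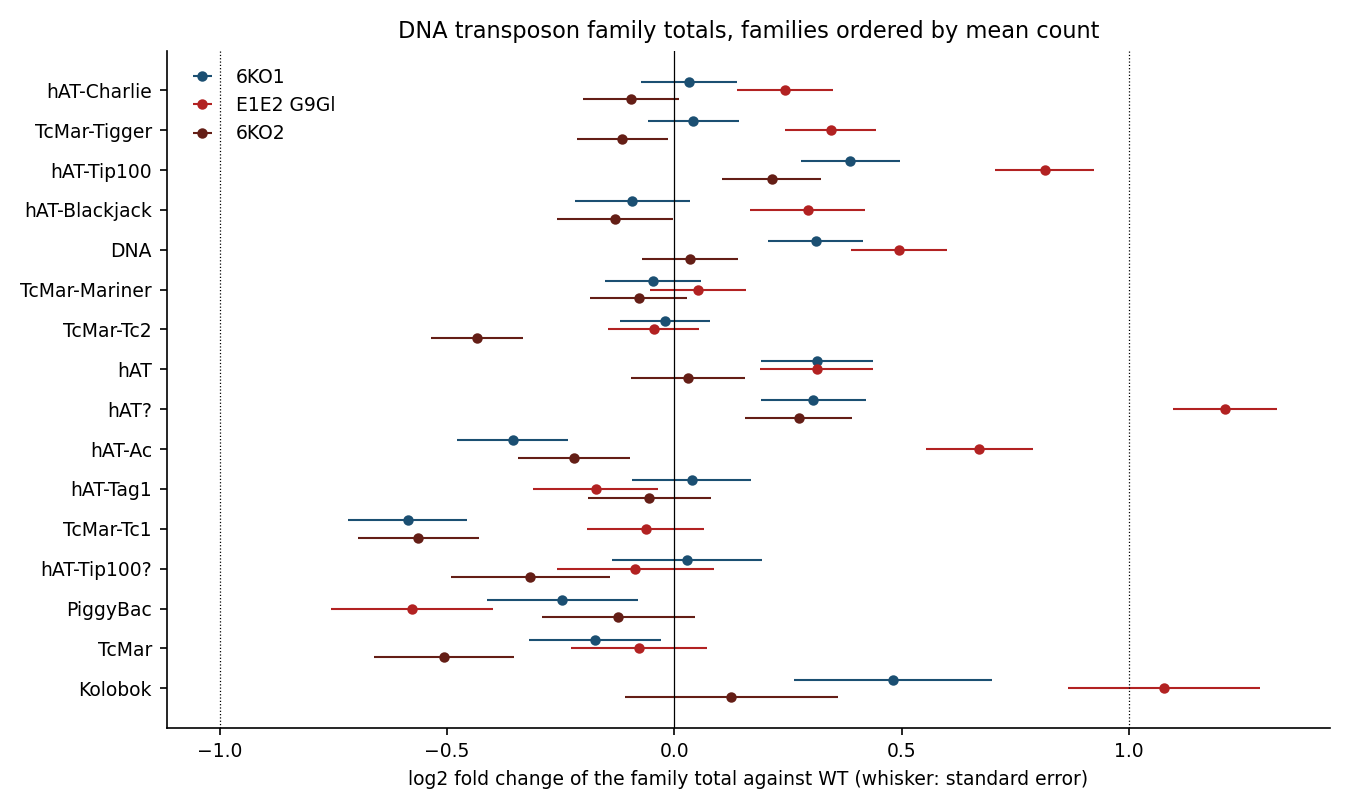
Log2 fold change of each tested DNA transposon family total against WT in 6KO1, E1E2 G9Gl and 6KO2, with families ordered from the highest mean count at the top. Points are fitted values and whiskers standard errors; hAT? (1.21) and Kolobok (1.08) pass the dotted line at 1 in E1E2 G9Gl. Under scaling by repeats alone neither passes it (0.37 and 0.23), and hAT-Tip100, hAT-Ac, DNA and TcMar-Tigger turn negative in that line.

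MER97c, an hAT-Tip100 element, was the only DNA transposon called higher in all 7 mutants. It had 1.07, 0.913 and 3.01 normalized counts in WT, 77.2, 58.2 and 58 in E1 and 42.3, 33.5 and 34.2 in E1 S1S2. Its WT counts alone would not have passed the filter on low counts. The E2 libraries, which had not received 4-OHT, had 47.6, 55.6 and 44.0, and the libraries labelled E1E2 had 20.7, 31.0 and 35.1. It was highest in E1E2 G9Gl (135, 117 and 109), with 74.7, 72.2 and 68.5 in 6KO1 and 38.3, 54.9 and 45.3 in 6KO2. Every mutant library thus lay above every WT library, by a log2 fold change that ran from 4.03 ± 0.44 (E1E2) over 4.38 ± 0.41 (E1 S1S2), 4.70 ± 0.40 (6KO2), 4.80 ± 0.40 (E2), 5.18 ± 0.37 (E1) and 5.34 ± 0.36 (6KO1) to 6.09 ± 0.34 (E1E2 G9Gl). The order of the mutants did not follow the number of genes lost: E1 S1S2 was below E1 (-0.80 ± 0.20, adjusted p = 0.0041) and 6KO2 below E1E2 G9Gl (-1.39 ± 0.19), both by the edgeR quasi-likelihood test, whereas E1E2 G9Gl was above the libraries labelled E1E2 (2.06 ± 0.21). The raw counts behind the 3 WT values were 1, 1 and 3, and the size of these changes rested on WT replicate 3: without it they ran from 4.71 (E1E2) to 6.76 (E1E2 G9Gl), with 5.06 in E1 S1S2, 5.38 in 6KO2, 5.48 in E2, 5.86 in E1 and 6.02 in 6KO1.

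Eulor9C, an old repeat of the DNA family, was the other element called higher in E1. It had 7.46, 4.57 and 4.01 normalized counts in WT and 19.5, 16.8 and 15.8 in E1 (log2 fold change 1.69 ± 0.37). In E1 S1S2 it had 13.3, 13.6 and 16.2 (1.42 ± 0.38), a call that was lost without WT replicate 2 or 3, without E1 S1S2 replicate 2 or 3 (1.31, 1.26, 1.45 and 1.33) and with DESeq2 (adjusted p = 0.011). It was also called in 6KO1 (1.8 ± 0.36) and E1E2 G9Gl (2.42 ± 0.34), and had 7.88, 7.75 and 4.13 in the libraries labelled E1E2. Tigger12A, a fossil of the pogo-like Tigger group, was called in E1 S1S2 alone among the mutants, at 25, 24.5 and 27 against 18.1, 6.39 and 7.03 in WT (1.30 ± 0.34), and lost the call without WT replicate 2 (1.03), without WT replicate 3 (1.1) and without E1 S1S2 replicate 3 (1.26), while it was 1.91 without WT replicate 1. Arthur1A, of hAT-Tip100, was the second element called in E2, at 33.3, 26.9 and 23.8 against 5.33, 4.57 and 15.1 in WT (1.74 ± 0.36, and 2.48 without WT replicate 3).

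Some elements were called in all lines without 4 or 6 KMTs. Of the 37 DNA transposons called higher in at least 1 mutant, 5 were called in all of 6KO1, E1E2 G9Gl and 6KO2: Chap1_Mam, Charlie21a, FordPrefect, MamTip1b and MER97c. Of all elements 32.6%, 41.3% and 22.5% were called higher in these lines singly. The share of all elements called in every one of them was not counted, and the comparisons share the WT libraries. Chap1_Mam, of hAT-Charlie, had 0 counts in all libraries of WT, E1 S1S2, E2 and the condition labelled E1E2, and 1 count in E1. It could therefore pass the filter on low counts only through the lines where it is high, which favours a call there. The 6KO1 libraries had 31.7, 19.1 and 21.5 normalized counts, the E1E2 G9Gl libraries 15.1, 26.6 and 32.4, and the 6KO2 libraries 10.3, 11.4 and 22.1. Measured against a floor of 3 counts over the 3 WT libraries, it was at least 24.4-fold higher in 6KO1 and in E1E2 G9Gl and at least 14.7-fold higher in 6KO2, and against the 1 count in E1 the ratio in 6KO1 was 76.7, with a 95% counting interval of 13.4 to 3069.

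MamTip1b, of hAT-Tip100, had 3.20, 1.83 and 2.01 normalized counts in WT and at most 5.86 in E1, E1 S1S2, E2 and the libraries labelled E1E2. The 6KO1 libraries had 10.6, 16.5 and 7.82 (2.29 ± 0.54), the 6KO2 libraries 20.7, 18.3 and 22.1 (3.07 ± 0.49), and the E1E2 G9Gl libraries 37.8, 26.6 and 25.9 (3.64 ± 0.46). FordPrefect, of the same family, had 13.9, 9.13 and 9.03 in WT and reached 45.7, 45.3 and 51.8 (6KO1), 57.9, 45.7 and 70.7 (6KO2) and 57.2, 35.8 and 51.8 (E1E2 G9Gl). Its log2 fold changes of 2.15 ± 0.29, 2.45 ± 0.28 and 2.18 ± 0.30 lay close together, and 6KO2 differed from E1E2 G9Gl by 0.27 ± 0.22 and 6KO1 from 6KO2 by -0.29 ± 0.22, neither past the threshold. Charlie21a had 14.9, 14.6 and 15.1 in WT and was at 1.26 ± 0.29 in 6KO1, 1.49 ± 0.29 in 6KO2 and 2.15 ± 0.27 in E1E2 G9Gl. None of these elements had over 20 normalized counts in a WT library. MamTip1b, like Chap1_Mam, could pass the filter on low counts only through the lines where it is high.

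**Figure D4:**
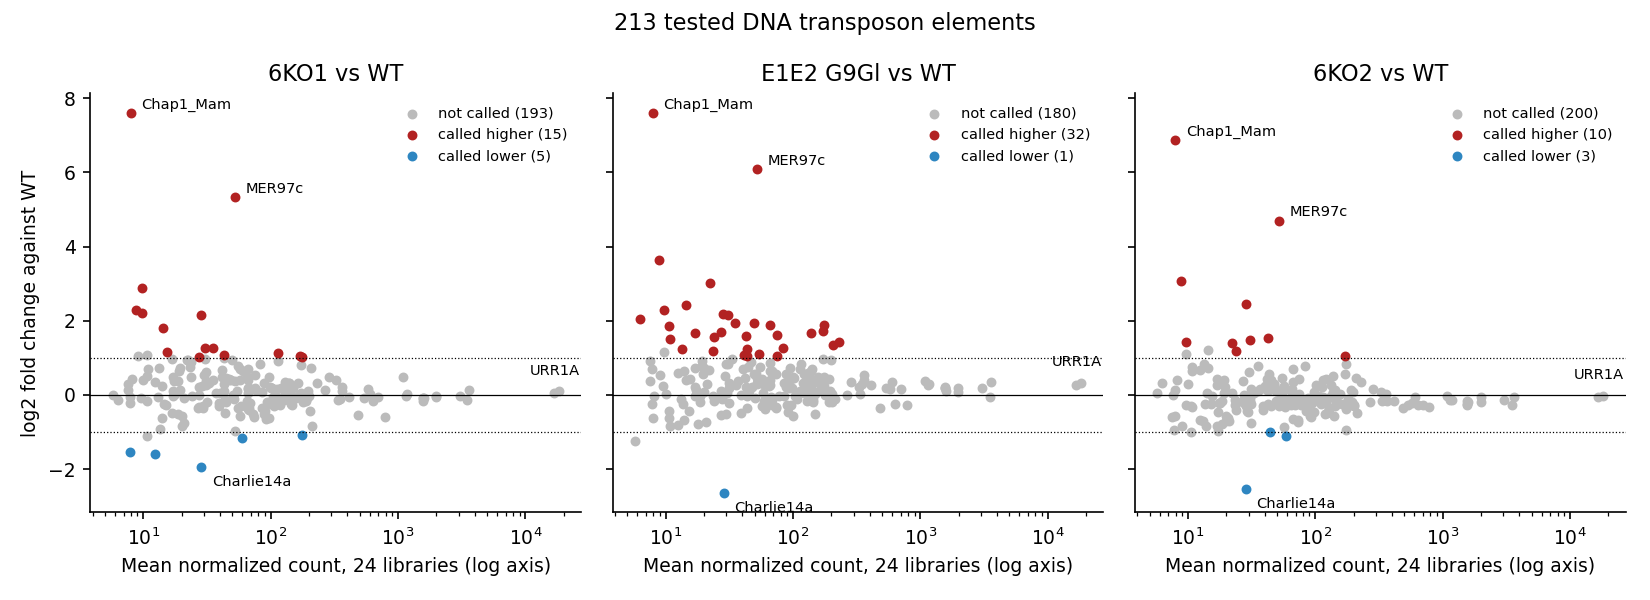
Log2 fold change against WT plotted over the mean normalized count (log axis) for the 213 tested DNA transposons in 6KO1, E1E2 G9Gl and 6KO2. Each point is 1 element, red points are called higher (15, 32 and 10) and blue points lower (5, 1 and 3), and dotted lines mark a log2 fold change of 1 in size; elements above about 1000 counts, such as URR1A, stay near 0, and the fitted values of Chap1_Mam depend on the prior count because WT is at 0.

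Other elements were called in 1 or 2 of these lines. MER136 (DNA family) had 6.39, 0.913 and 4.01 normalized counts in WT, 32.5, 25.2 and 24.4 with 6KO1 (2.87 ± 0.40), 18.3, 18.5 and 18.1 in E1E2 G9Gl (2.29 ± 0.45), but only 9.31, 8.0 and 6.63 in 6KO2. UCON80 (hAT?), one of the conserved old repeats named for ultraconserved elements, had 8.52, 2.74 and 4.01 in WT and 27.3, 21.8 and 20.5 in 6KO1 (2.20 ± 0.40). It was called at 1.42 ± 0.45 in 6KO2 too, but not without WT replicate 2 (1.1), WT replicate 3 (1.29) or any 1 of the 6KO2 libraries (1.36 to 1.52), nor with DESeq2 (adjusted p = 0.015). UCON8 (DNA family) was called in E1E2 G9Gl (1.59 ± 0.24) and 6KO2 (1.54 ± 0.23) and lay just under the fold change minimum in 6KO1 (0.99) and in the libraries labelled E1E2 (0.99).

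E1E2 G9Gl had the highest level of several elements. Arthur1A had 59.3, 71.7 and 71.2 normalized counts there (3.01 ± 0.31, and 3.74 without WT replicate 3) and 19.7, 19.4 and 27.6 in 6KO2, where its call (1.41 ± 0.37) was lost without WT replicate 1 (1.2), WT replicate 2 (1.1) or 6KO2 replicate 3 (1.23) and was 2.15 without WT replicate 3. BLACKJACK, which gives the hAT-Blackjack family its name, had 128, 66.7 and 118 in WT, 379.7, 379.3 and 392 in E1E2 G9Gl (1.89 ± 0.16), while 6KO1 had 237, 178 and 220 and 6KO2 had 195, 158 and 199.9. Its value of 1.03 ± 0.16 in 6KO1 was just inside the fold change minimum and was 0.78 without WT replicate 2, 0.93 without 6KO1 replicate 1 and 0.99 without 6KO1 replicate 3. Chap1a_Mam, an hAT-Charlie relative of Chap1_Mam by name, had 48.0, 21.0 and 37.1 in WT and 155, 131 and 111 in E1E2 G9Gl (1.93 ± 0.22), against 69.5, 71.4 and 60.6 in 6KO1 (0.94 ± 0.23) and 43.4, 27.4 and 40.9 in 6KO2 (0.10 ± 0.26). FordPrefect_a had 8.52, 2.74 and 3.01 in WT, 18.3, 17.3 and 23.3 in E1E2 G9Gl (2.05 ± 0.44, and 2.71 without WT replicate 1) and at most 5.28 in 6KO1. In these elements E1E2 G9Gl did not overlap WT or either line without all KMTs.

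By family, the 32 elements called higher in E1E2 G9Gl (against 41.3% of all elements) were 10 of the 34 tested hAT-Tip100 elements, 8 of 73 hAT-Charlie, 6 of 45 TcMar-Tigger, 4 of 18 in the DNA family, 2 of 6 in hAT?, 1 of 8 in hAT-Blackjack and the only Kolobok element. In 6KO1, against 32.6% of all elements upwards, hAT-Tip100 had 5 calls upwards and 2 downwards, and in 6KO2, against 22.5%, it had 5 of the 10 calls upwards. The 2 calls upwards in E2 and the 1 in the libraries labelled E1E2 were of hAT-Tip100 too, while the DNA family matched its 1 call in E1, and the DNA and TcMar-Tigger families its 1 call in E1 S1S2.

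Fewer elements fell. Charlie14a (hAT-Charlie) fell in 5 of the 7 mutants. It had 62.9, 56.6 and 74.3 normalized counts in WT, 27.4, 32.6 and 31.7 in E1 (-1.07 ± 0.23), 15.7, 15.4 and 21.6 in E1 S1S2 (-1.88 ± 0.25) and 15.8, 17.4 and 16.6 in 6KO1 (-1.95 ± 0.25). In E1E2 G9Gl it had 8.63, 10.4 and 11.7 (-2.65 ± 0.29) and in 6KO2 9.31, 11.4 and 12.2 (-2.55 ± 0.28). The E2 and E1E2 values were -0.77 ± 0.23 and -0.74 ± 0.22 and were not called (adjusted p = 0.012 in both, edgeR quasi-likelihood test). All libraries of all 7 mutants lay below the lowest WT library, and only the call in E1 depended on a library (-0.96 without WT replicate 3).

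Charlie16, also hAT-Charlie, had 101, 80.4 and 77.3 normalized counts in WT and was called lower in the 3 lines that lack Suv39h1 and Suv39h2. Charlie16 was not called in E1, but its fitted level there was also below WT. The fall to E1 S1S2 was smaller from E1 (-1.27) than from WT. It had 22.7, 29.9 and 22.5 in E1 S1S2 (-1.78 ± 0.20), 42.2, 37.4 and 36.2 in 6KO1 (-1.15 ± 0.19) and 39.3, 44.6 and 36.5 in 6KO2 (-1.10 ± 0.20, and -0.98 without WT replicate 1). In E1E2 G9Gl it overlapped WT at 73.4, 84.4 and 72.5 (-0.16 ± 0.18). Arthur1 (hAT-Tip100) had 287, 184 and 242 in WT and 124, 110 and 102 in 6KO1 (-1.08 ± 0.14, and -0.93 without WT replicate 1). It was also below every WT library in E1 (118, 127 and 122), in the libraries labelled E1E2 (141, 116 and 127) and in 6KO2 (119, 137 and 116), at -0.95, -0.88 and -0.93, just short of the fold change minimum, and above every WT library in E1E2 G9Gl (367, 317 and 308; 0.48 ± 0.13).

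EuthAT-N1 (hAT-Tip100) had 14.9, 22.8 and 25.1 normalized counts in WT, 7.03, 6.09 and 7.82 in 6KO1 (-1.58 ± 0.34) and 9.85, 8.86 and 5.17 in the libraries labelled E1E2 (-1.39 ± 0.35, a call lost without WT replicate 2 or 3 or E1E2 replicate 3, at -1.32, -1.25 and -1.16). EutTc1-N2 (TcMar-Tc1) was the element just inside the fold change minimum in 6KO2, at 31.0, 29.7 and 30.9 against 65.0, 54.8 and 65.2 in WT (-1.01 ± 0.21), and was under it without WT replicate 1 (-0.97), WT replicate 3 (-0.96) or 6KO2 replicate 2 (-0.99). Eulor1 (DNA family) had 11.7, 10 and 8.03 in WT and 2.64, 4.35 and 2.93 in 6KO1 (-1.54 ± 0.51), and lost that call without any 1 of the 6KO1 libraries or without WT replicate 1 or 2 (-1.40 to -1.80), and with DESeq2 (adjusted p = 0.017).

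**Figure D5:**
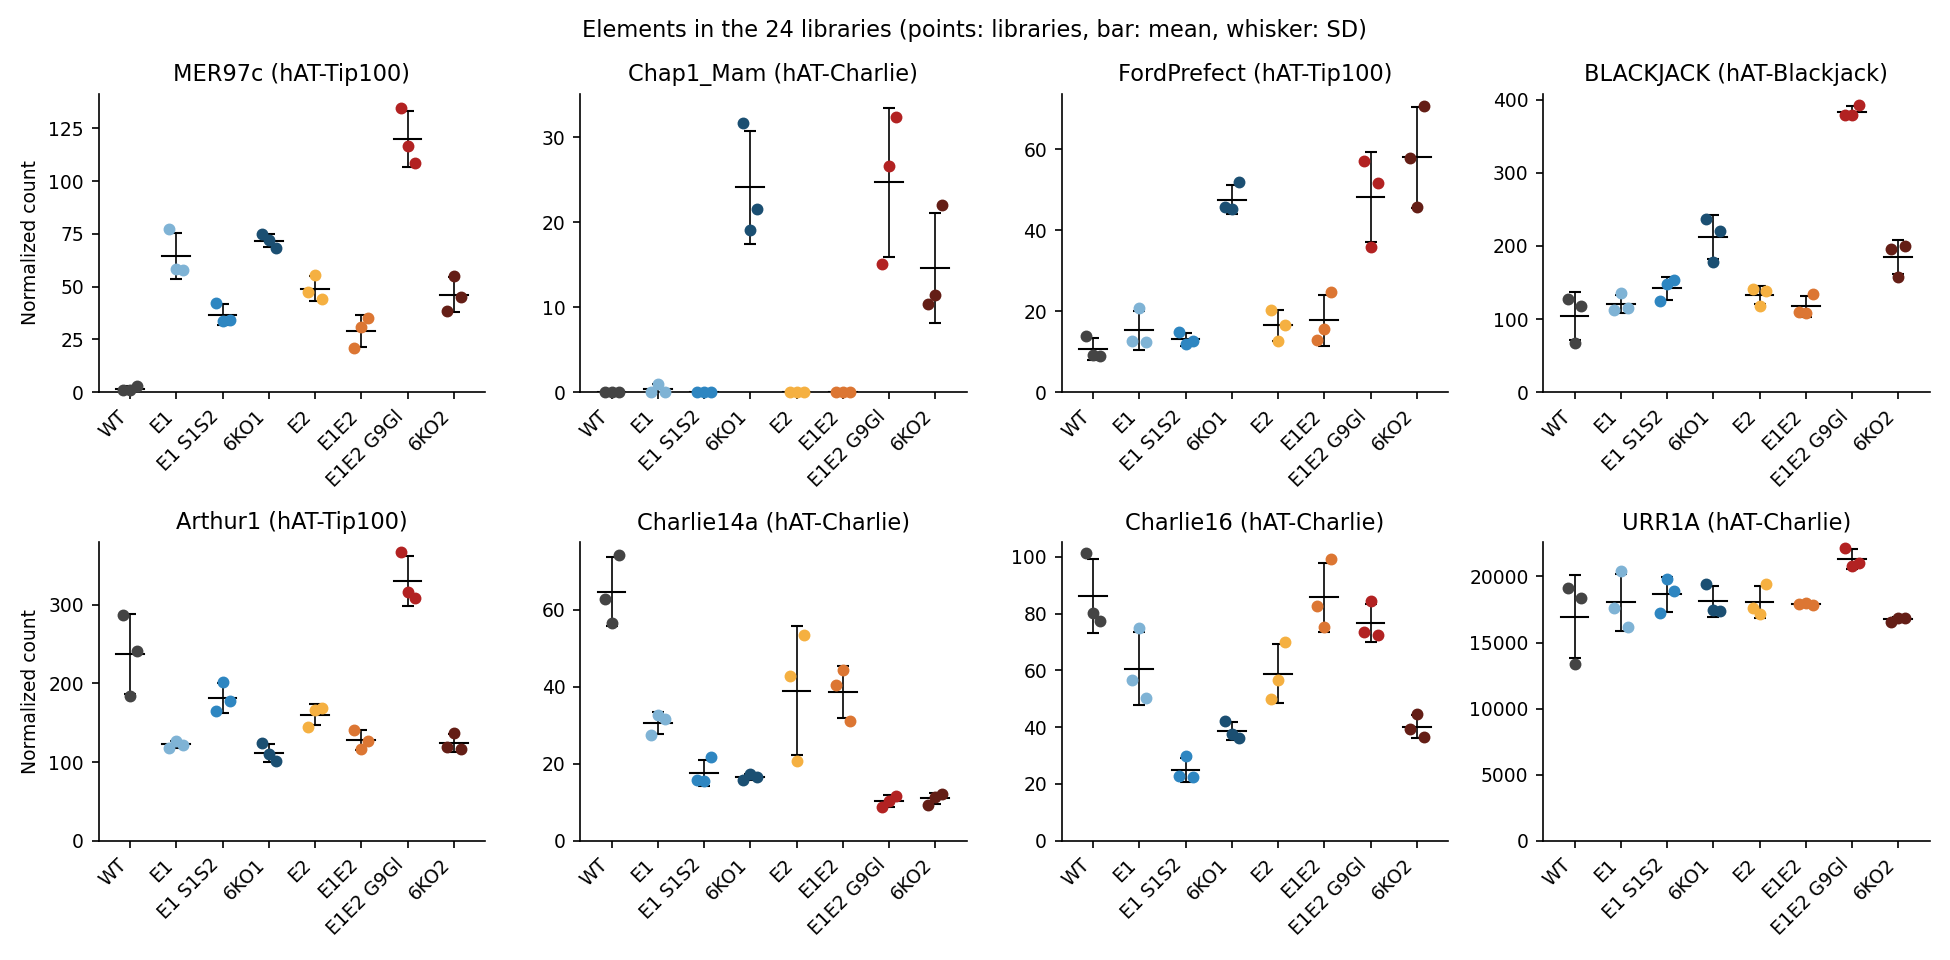
Normalized counts of 8 DNA transposons in each of the 24 libraries (points), with the mean (bar) and SD (whisker, n = 3) of each condition; every axis starts at 0. MER97c is near 0 in WT only, Chap1_Mam is seen in 6KO1, E1E2 G9Gl and 6KO2 apart from 1 count in E1, Charlie14a is below WT in every mutant, Charlie16 is lowest in E1 S1S2, and URR1A stays between 13391 and 22173.

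For the elements nearest to the fold change minimum among those with an adjusted p of at most 0.01, MER99 (hAT?, 1.01) and BLACKJACK (1.03) were just inside in 6KO1 and UCON8 (0.99) and X32_DNA (-0.98) just outside. In E1E2 G9Gl, MER127 (TcMar-Tigger, 1.05) and Charlie17a (1.06) were inside and MER45B (0.97) and MARE8 (0.96) outside. In 6KO2, MER45B (hAT-Tip100, 1.04) and EutTc1-N2 were inside and Arthur1 (-0.93) and Kanga1d (-0.85) outside. MER45B had 136, 83.1 and 137 normalized counts in WT, against 280, 226 and 223 (6KO1), 271, 217 and 207 (E1E2 G9Gl) and 229, 245 and 257 (6KO2), so values that straddle the minimum came from similar levels. Without the minimum, 31 DNA transposons passed the adjusted p upwards in 6KO1, 17 in 6KO2 and 68 in E1E2 G9Gl, and 15, 15 and 4 passed it downwards. The share of all elements that passed without the minimum was not counted. MER127 and Charlie17a are named for this closeness alone, and Charlie17a was under the minimum without E1E2 G9Gl replicate 1 (0.86), WT replicate 2 (0.97) or WT replicate 3 (0.93).

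Each line was also compared with the one it came from. From E1 to E1 S1S2, 0 DNA transposons rose, against 1.49% of all elements, with 22 at an unadjusted p under 0.05 and 0 called by DESeq2, and 1 fell (Charlie16, -1.27 ± 0.21), against 1.16%. From E1 S1S2 to 6KO1, 7 rose, against 23.7%, and 1 fell, against 0.497%. MamTip1b rose by 4.09 ± 0.68, from 2 counts in the 3 E1 S1S2 libraries, and MER136 by 2.46 ± 0.36, while DNA1_Mam (TcMar) fell from 13.3, 19.9 and 26.1 to 7.03, 5.22 and 1.96 (-1.99 ± 0.42). From E2 to the libraries labelled E1E2, 0 rose and 0 fell, against 0.414% in either direction, with 13 and 7 at an unadjusted p under 0.05 and 0 either way by DESeq2, and Setdb1 counts did not fall in this step.

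From E1E2 to E1E2 G9Gl, the loss of G9a and Glp, 31 DNA transposons rose, against 33.6% of all elements, and 1 fell (Charlie14a, -1.91 ± 0.32), against 0.994%. Among the largest rises, MamTip1b changed by 4.03 ± 0.49 (4.67 without E1E2 replicate 1), X24_DNA (DNA family) by 2.74 ± 0.45 and FordPrefect_a by 2.60 ± 0.48. X24_DNA had 4.93, 1.11 and 4.13 normalized counts in the libraries labelled E1E2 and 24.8, 18.5 and 28.5 in E1E2 G9Gl. The hAT? (1.21 ± 0.11) and Kolobok (1.17 ± 0.22) totals rose too, 2 of 16 families against 17.5% of all families, the latter under the minimum without E1E2 replicate 1 (0.98). Without E1E2 G9Gl replicate 3, 2 elements were called lower. With scaling by repeats alone the balance turned, to 13 elements higher and 19 lower, and neither family total was called (0.52 for hAT? and 0.48 for Kolobok).

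From E1E2 G9Gl to 6KO2, the descendant clone with Suv39h1 and Suv39h2 also disrupted, the direction turned. No DNA transposon rose, against 1.82%, with 3 at an unadjusted p under 0.05 upwards and 0 called by DESeq2, and 23 fell, against 16.7%. The median log2 change was -0.38, against -0.47 over all elements. Chap1a_Mam fell by 1.83 (± 0.22), FordPrefect_a by 1.72 (± 0.43, with -2.54 without 6KO2 replicate 3), Arthur1A by 1.59 (± 0.27) and Eulor1 by 1.65 (± 0.45), the last call being lost without 6KO2 replicate 3 (-1.31) or E1E2 G9Gl replicate 1 (-1.37) or 2 (-1.51). Below the fold change minimum, 10 of the 16 family totals passed the adjusted p of 0.01. All were lower in 6KO2, from hAT-Charlie at -0.34 ± 0.11 to Kolobok at -0.95 ± 0.21. Kolobok passed the fold change minimum without 6KO2 replicate 3 (-1.11) or E1E2 G9Gl replicate 3 (-1.01). The hAT? total passed it without E1E2 G9Gl replicate 1 (-1.01). Other repeat families fell too. The median log2 change was -0.43 over the 16 DNA transposon families and -0.34 over all families, with L2 at -0.23 and MIR at -0.27. With scaling by repeats alone only 2 elements fell and 1 rose, and 6 of the 10 family totals, hAT-Charlie (0.17), TcMar-Tc2 (0.12), hAT-Blackjack (0.084), DNA (0.050), TcMar-Tigger (0.049) and TcMar-Tc1 (0.0071), were no longer lower. The class total went from 93771, 88235 and 89916 to 69401, 71166 and 71111, without overlap (ratio 0.778, exact permutation p = 0.1).

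The lines 6KO1 and 6KO2 lack the same 6 enzymes but were built in a different order. In 6KO1 5 DNA transposons were higher, against 5.05%, and 0 were lower, against 1.41%, with 8 at an unadjusted p under 0.05 downwards and 0 called by DESeq2. MER96 (hAT-Tip100) had 13.2, 15.7 and 12.7 normalized counts in 6KO1 and 4.14, 3.43 and 3.31 in 6KO2 (1.90 ± 0.46), MER136 differed by 1.76 ± 0.35, X5a_DNA (TcMar) by 1.50 ± 0.46 and MamTip2 (hAT-Tip100) by 1.18 ± 0.34. The count was 2 without 6KO2 replicate 1 and 3 without 6KO1 replicate 1 or 6KO2 replicate 3. X5a_DNA lost its call without 6KO1 replicate 1 (1.50) or 2 (1.37) or any 1 of the 6KO2 libraries (1.37 to 1.68) and with DESeq2 (adjusted p = 0.013), and MamTip2 without 6KO1 replicate 1 (0.92), 6KO2 replicate 1 (0.97) or 6KO2 replicate 3 (1.21). The class total was 1.1 times higher in 6KO1 without overlap (exact permutation p = 0.1), as were the L2 and MIR counts (1.11).

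A pair of differences of differences were tested in the same model. The step that disrupted Suv39h1 and Suv39h2 (1 clone against another) differed between the E1E2 G9Gl and E1 backgrounds for 27 DNA transposons. All had the more negative change in the E1E2 G9Gl background, against 19.1% of all elements in that direction. For 0 it was the more positive, against 1.57%, with 4 at an unadjusted p under 0.05 and 0 called by DESeq2. Arthur1 was an example: it went from 118, 127 and 122 in E1 to 164, 202 and 177 in E1 S1S2 (0.56 ± 0.14), and from 367, 317 and 308 in E1E2 G9Gl to 119, 137 and 116 in 6KO2 (-1.42 ± 0.14), a difference of -1.98 ± 0.20. Under scaling by repeats alone 4 elements had a more negative and 5 a more positive change. The effect of 4-OHT was compared between clones A4 and E25 by setting the change from E2 to the libraries labelled E1E2 against that from WT to E1. Here 1 DNA transposon differed upwards, against 0.497%, and 2 downwards, against 4.39%. MER97c was the largest, at -5.96 ± 0.46 (-6.64 without WT replicate 3), and was already present in E2 without 4-OHT, followed by Eulor9C at -2.43 ± 0.54 and Charlie16 at 1.06 ± 0.26, whose call was lost without E1 replicate 1 or 3, E1E2 replicate 3, E2 replicate 1 or 2, or WT replicate 1 (0.93 to 1.02).

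Genes that descend from DNA transposases were examined as a list of 27, of which 23 passed the filter on low counts. They include Cenpb, the centromere protein derived from a pogo-like transposase, and the Tigd, Jrk and Pog genes of the same origin, piggyBac-derived Pgbd genes, hAT-derived Zbed genes and THAP genes. In E1 S1S2, 1 gene was called higher, against 6.65% of the 18565 genes tested, and 1 lower, against 5.11%. There was 1 gene called higher in 6KO1, against 20.6%, and 1 in E1E2 G9Gl, against 16.8%. There were 0 calls upwards in E1 (against 2.27%), E2 (2.9%), the libraries labelled E1E2 (5.51%) and 6KO2 (15.3%) by either edgeR or DESeq2, with 5, 11, 9 and 15 genes at an unadjusted p under 0.05 in either direction. By both tools 0 genes were lower in E1 (against 1.99%), E2 (3.21%), the libraries labelled E1E2 (3.22%), 6KO2 (5.39%), E1E2 G9Gl (8.41%) and 6KO1 (10.2%), with 19 and 17 at an unadjusted p under 0.05 in either direction in the last pair, and 1 was lower in E1E2 G9Gl without WT replicate 1.

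Cenpb rose in E1E2 G9Gl by 1.50 ± 0.08 on the log2 scale, from a mean of 2170 normalized counts in WT to 6127, and was at 0.70 ± 0.08 in 6KO1 and 0.47 ± 0.08 in 6KO2. Pgbd5 rose in E1 S1S2 by 1.82 ± 0.10 and was within 0.52 of WT in the other mutants. Zbed5 fell in E1 S1S2 (-1.10 ± 0.15), a call lost without WT replicate 2 or E1 S1S2 replicate 2. Tigd3, a Tigger-derived gene, rose in 6KO1 from a mean of 38.2 to 81.2 (1.09 ± 0.18), and was not called without 6KO1 replicate 1. The median of the list was 0.24 in E1E2 G9Gl, against 0.01 over all genes, and between -0.08 and 0.04 in the other mutants.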

How the data were processed

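RNA-seq reads of 24 libraries had been trimmed with cutadapt (1.8.1), aligned with STAR (2.5.2b) to GRCm38 and counted with TEtranscripts, tools and build being those of the study's methods and the submitters' processing notes. The counts table was used as deposited: whole read counts per gene and per repeat element, not normalized, made by the authors with reads of all copies of an element summed, so multi-mapped reads can be shared between related elements. Malformed rows (1) held at most 0.00271% of a library and were left out, and 0 columns lacked a sample.

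Library sizes and TMM factors came from the gene rows, and a normalized count is the count divided by the effective library size times its mean over libraries. Low counts were filtered with filterByExpr, and edgeR's quasi-likelihood test was fitted in R 4.3.3 (edgeR version 4.0.16, with limma 3.58.1) to all 24 libraries for 13 comparisons and 2 interactions, two-sided, with Benjamini-Hochberg adjustment over all elements, families or genes. The filter needs counts in only as many libraries as a condition has, so an element near 0 in WT can pass through mutants alone. Chap1_Mam, MamTip1b and MER97c passed in this way. A call needed an adjusted p of at most 0.01 and a log2 fold change of at least 1 in size. Class totals were compared by two-sided exact permutation tests. DESeq2 (1.42.0), other scalings and filters, a replicate block and leaving out single libraries were tried as alternatives. Scripts were tested on simulated data. Intervals and floors cover counting error only. Numbers in the labels did not pair libraries.

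Named elements were the 10 with the highest mean count, the rodent URR1 and RCHARR elements, the 6 largest rises in each of 6KO1, E1E2 G9Gl and 6KO2 with no overlap with WT, up to 6 of the largest falls, elements called in the other mutants, up to 4 per step or interaction, and 2 on either side of the fold change minimum. Members, lists and rules were chosen with earlier results of these data known. No consensus sequences or copy positions were used here.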

Additional observations from a re-analysis of the deposited data

Results flagged for a closer look

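The step that disrupted Suv39h1 and Suv39h2 differed between backgrounds. Each step is 1 clone against another, so clone and genotype cannot be told apart. Suv39h2 counts were below WT in both E1E2 G9Gl (-1.47) and 6KO2 (-0.96), and the part of this was not tested. For 27 DNA transposons the step from E1E2 G9Gl to 6KO2 was more negative than the step from E1 to E1 S1S2, by the edgeR quasi-likelihood test of the difference. This was 12.7% of those tested, below the 19.1% of all repeat elements called in that direction. The median difference was -0.47 for DNA transposons and -0.58 over all elements. Among the 27 the differences of the log2 changes were -2.55 for Eulor1, -2.34 for Arthur1A, -1.98 for Arthur1 and -1.96 for MER99. The hAT? (-1.02) and Kolobok (-1.22) family totals were called in this direction too (against 8.77% of all families), the former not without E1 replicate 3 (-0.93) or E1 S1S2 replicate 2 (-0.99). With scaling by repeats alone 4 DNA transposons differed in this direction and 5 in the other, 0 family totals were lower and 1 higher, and neither hAT? (-0.42) nor Kolobok (-0.61, adjusted p = 0.069 by the edgeR quasi-likelihood test) was called.

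The change with 4-OHT differed between clone A4, which lacks Eset2, and the parental clone E25 for 1 DNA transposon upwards, against 0.497% of all elements, and 2 downwards, against 4.39%. The differences of the log2 changes were -5.96 for MER97c, -2.43 for Eulor9C and 1.06 for Charlie16. MER97c and Eulor9C had more counts in E1 than in WT and fewer in the libraries labelled E1E2 than in E2. Setdb1 counts did not fall from E2 to the libraries labelled E1E2, and the part of this in the differences was not tested.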

How the results depend on the processing

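DNA transposons called had few counts (most with a mean at or below 100). Single libraries decided calls near the threshold, and the scaling decided directions of small changes shared by the class. The part of low counts in the calls that hung on 1 library was not tested. With DESeq2, 226 of 231 results were kept. For the 157 results on a single element or family this means the same direction and side of the threshold. For a count of calls it means only a similar number. Elements lower went from 5 to 4 in 6KO1 against WT and from 27 to 29 in the Suv39h interaction. The other 5 results were single elements that lost the call with DESeq2: Eulor1 in 6KO1 (adjusted p = 0.017), Eulor9C in E1 S1S2 (0.011), UCON80 in 6KO2 (0.015), X5a_DNA in 6KO1 against 6KO2 (0.013) and MER136 in 6KO2 against E1E2 G9Gl (0.016). With RLE factors and with no filter 230 each were kept, and with only the libraries compared 218 of 225, while the ratios of the class total to WT moved by less than the spread between replicates (1 SD of the ratio) with DESeq2 size factors (7 of 7) and, with or without division by L2 and MIR, without the largest element (14 of 14). The replicate numbers did not pair the libraries (correlations of -0.15 to 0.20, mean 0.01), and with the replicate number as a block 244 results stayed and 1 moved, the elements lower in 6KO1 against E1 S1S2, to 2.

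The counts from here on cover DNA transposons, their families and the transposase-derived genes. They are given without the shares over all features under the same settings, so they do not set the class against other repeats. With only the libraries compared, E1E2 against WT had 2 elements higher and 0 lower, and the 4-OHT interaction 0 higher. With scaling by repeats alone the class total ratio to WT was 0.673 in 6KO1, 0.748 in 6KO2 and 0.676 in E1E2 G9Gl. Elements called higher were 7 in 6KO1, 6 in 6KO2 and 13 in E1E2 G9Gl against WT, 13 in E1E2 G9Gl against E1E2, 1 in 6KO2 against E1E2 G9Gl, 2 in 6KO1 against 6KO2 and 5 in the Suv39h interaction. Elements called lower were 2 in E1, 2 in E1E2, 1 in E2, 27 in 6KO1, 12 in 6KO2 and 36 in E1E2 G9Gl against WT, 15 in 6KO1 against E1 S1S2, 19 in E1E2 G9Gl against E1E2, 2 in 6KO2 against E1E2 G9Gl, 2 in 6KO1 against 6KO2 and 4 in the Suv39h interaction. Families called higher were 0 in E1E2 G9Gl against WT and against E1E2 and 1 in the Suv39h interaction, and families called lower were 1 in 6KO1, 2 in E1E2 G9Gl against WT, 2 against E1E2 and 0 in the Suv39h interaction.

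The same scaling reversed log2 changes. In E1E2 G9Gl against WT these became -0.34 for the DNA family, -0.18 for hAT-Ac, -0.016 for hAT-Tip100, -0.49 for TcMar-Tigger, -0.48 for RCHARR1, -0.50 for URR1A and -0.57 for URR1B, and against E1E2 -0.36 for the DNA family, -0.13 for hAT-Ac and -0.37 for TcMar-Tigger. In 6KO1 against WT they became -0.22 for hAT-Tip100, -0.48 for RCHARR1, -0.52 for URR1A and -0.55 for URR1B. In 6KO2 against E1E2 G9Gl they became 0.050 for the DNA family, 0.084 for hAT-Blackjack, 0.17 for hAT-Charlie, 0.085 for RCHARR1, 0.0071 for TcMar-Tc1, 0.12 for TcMar-Tc2, 0.049 for TcMar-Tigger, 0.16 for URR1A and 0.19 for URR1B, and in the Suv39h interaction 0.092 for the DNA family and 0.079 for TcMar-Tigger. By construction this scaling removes the change common to the repeats. Relative to genes, the median over all elements was a rise in E1E2 G9Gl against WT (0.77) and E1E2 (0.64) and in 6KO1 (0.56). It was a fall in 6KO2 against E1E2 G9Gl (-0.47) and in the Suv39h interaction (-0.58).

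With only features of a mean above 100, elements called higher were 3 in 6KO1, 1 in 6KO2, 5 in E1E2 G9Gl and 0 in E1, E1 S1S2, E2 and E1E2 against WT, 6 in E1E2 G9Gl against E1E2, and 0 in 6KO1 against E1 S1S2, in 6KO1 against 6KO2 and in the 4-OHT interaction. Elements called lower were 1 in 6KO1 and 0 in 6KO2, E1E2 G9Gl, E1, E1 S1S2 and E1E2 against WT, 5 in 6KO2 against E1E2 G9Gl, 8 in the Suv39h interaction and 0 in 6KO1 against E1 S1S2, E1 S1S2 against E1, E1E2 G9Gl against E1E2 and the 4-OHT interaction. Families higher were 1 in E1E2 G9Gl against WT and 1 against E1E2, families lower 1 in the Suv39h interaction, and transposase-derived genes higher 0 in 6KO1. Fewer features were tested under this filter.

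With no fold change minimum, elements higher were 31 in 6KO1, 17 in 6KO2, 68 in E1E2 G9Gl, 7 in E1 S1S2 and 2 in E1E2 against WT, 20 in 6KO1 against E1 S1S2, 4 in E1 S1S2 against E1, 59 in E1E2 G9Gl against E1E2 and 16 in 6KO1 against 6KO2. Elements lower were 15 in 6KO1 and in 6KO2, 4 each in E1E2 G9Gl, E1 S1S2 and E1E2, 2 in E1 and 1 in E2 against WT, 12 in 6KO1 against E1 S1S2, 3 in E1 S1S2 against E1, 6 in E1E2 G9Gl against E1E2, 74 in 6KO2 against E1E2 G9Gl, 1 in 6KO1 against 6KO2 and 49 in the Suv39h interaction. Families higher were 6 in E1E2 G9Gl against WT, 6 against E1E2, 1 in 6KO1 and 1 in 6KO1 against 6KO2, and families lower 10 in 6KO2 against E1E2 G9Gl, 6 in the Suv39h interaction, 2 in 6KO2 and 1 each in 6KO1, E1E2 G9Gl and E2. Transposase-derived genes higher were 9 in E1E2 G9Gl, 7 in 6KO2, 6 in 6KO1, 2 in E1 S1S2 and 1 each in E1E2 and E2, and lower 7 in E1 S1S2, 6 each in 6KO1 and E1E2 G9Gl, 4 in 6KO2, 2 each in E1E2 and E2 and 1 in E1.

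Leaving out 1 library at a time gave 11 to 21 elements higher in 6KO1, 28 to 40 in E1E2 G9Gl and 6 to 11 in 6KO2 against WT. It gave 1 to 4 in E1 S1S2, 1 to 4 in E1E2, 2 to 5 in 6KO1 against 6KO2 and 0 to 2 in the 4-OHT interaction. In the Suv39h interaction 21 to 32 were lower. Elements lower were 3 to 8 in 6KO1, 1 to 6 in 6KO2, 0 to 2 in E1, 0 to 1 in E1E2, 0 to 1 in E2, 1 to 2 in E1E2 G9Gl against WT and 1 to 2 against E1E2. Families higher were 1 to 2 in E1E2 G9Gl against WT and against E1E2, families lower 0 to 1 in 6KO2 against E1E2 G9Gl and 1 to 2 in the Suv39h interaction. Transposase-derived genes higher were 0 to 1 in 6KO1, and lower 0 to 1 in E1 S1S2 and in E1E2 G9Gl. The log2 changes of RCHARR1 ran from -0.0064 to 0.22 in 6KO1 and from -0.21 to 0.019 in 6KO2, those of URR1A from -0.053 to 0.19 and from -0.16 to 0.076, and those of URR1B from -0.090 to 0.16 and from -0.21 to 0.039. Where a library was left out, the cause of a change was not tested.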
